A study of Homo sapiens with 18 samples.

Results

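The genes described here encode the enzymes that write, keep and remove DNA methylation and the subunits of the polycomb complexes. They were chosen by name: DNMT1, DNMT3A, DNMT3B, UHRF1, TET2, TET3, EZH2, EED, SUZ12 and BMI1, 10 genes of the 19740 that the array's probes could be given names for. Probes were named through their RefSeq transcripts, and 8 of the 10 genes had a probe, 15 probes in all. Every one of the 8 passed the filter on dim probes. TET3 and EED were not analysed here.

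Huh1 and Huh7 are established human hepatocellular carcinoma (HCC) cell lines. Cells of each line were given disulfiram (DSF), a drug used against alcohol dependence, at 0.1 µM, or the pyrimidine analogue 5-FU at 1 µM. Others served as control, all for 48 hours. EpCAM+ cells, sorted by flow cytometry, were measured in all 6 groups. EpCAM is a surface protein used to enrich tumor-initiating HCC cells, so every value below, controls included, belongs to cells sorted as EpCAM+ from a single line. The study describes the drugs as given to EpCAM+ cells. Whether the cells were still EpCAM+ at harvest was not checked here. The study's methods list copper chloride with DSF, and whether the control received it is not given in the sources used here. Total RNA was hybridised to 1-color arrays, 3 per group and 18 in all.

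DNA methylation at CpG sites is set de novo by DNMT3A and DNMT3B and copied after replication by DNMT1, which UHRF1 guides to hemimethylated DNA. TET enzymes oxidise methylcytosine and so start its removal. Polycomb repressive complex PRC2 (EZH2, EED and SUZ12) methylates histone H3 at lysine K27, and PRC1, of which BMI1 is a subunit, ubiquitinates histone H2A. In liver cancer these regulators are known for silencing tumor suppressor genes and for the self-renewal of tumor-initiating cells.

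A level below is the log2 signal of a probe less the log2 75th percentile of its array, and a change is the log2 difference of 2 group means. Levels compare the same probe between groups, not one gene with another. Between 59.9% and 71.1% of probes per array were well above background, and arrays of a group correlated with r of 0.989 to 0.997. The arrays lay on 3 slides. Slide 1 held the Huh1 control and 5-FU arrays and Huh1 DSF replicates 1 and 2. Slide 2 held the Huh7 control and 5-FU arrays, Huh1 DSF replicate 3 and Huh7 DSF replicate 1, and Huh7 DSF replicates 2 and 3 lay on slide 3. A fit with the slide as a block therefore reads the Huh7 DSF change from replicate 1 alone. Slide 3 was scanned on a different day from the others. The 75th percentile stood higher against 7 spike-in control probes on the 5-FU arrays than on the control arrays, by 0.83 log2 in Huh1 and 0.98 log2 in Huh7, so 5-FU changes are relative to a total that moved against the spike-ins. Within the DSF groups the log2 75th percentile less the spike-ins differed by slide. In Huh1 it was -3.23 and -3.19 on slide 1 and -2.94 on slide 2. In Huh7 it was -3.13 on slide 2 and -3.476 and -3.479 on slide 3. This spread enters every DSF value scaled to the spike-ins. In bulk RNA, fewer cells with a transcript and less of it per cell cannot be told apart.

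The labelled cell type was checked on 8 hepatoma markers (EPCAM, AFP, ALB, KRT8, KRT18, TTR, APOA1 and GPC3), all well above background on 18 of 18 arrays, which does not check the sort, since no EpCAM-negative cells were analysed here. Of 7 markers of other cell types, COL3A1 was well above background on 1 array, CD3E on 6, COL1A1 on 11 and VWF on 13, while CD68, PECAM1 and 1 of 3 probes of PTPRC were so on all 18 and the other 2 PTPRC probes on 0. The log2 of the summed level of the 6 tested markers of other cells ran from 0.45 in Huh7 control to 2.28 in Huh1 5-FU, where CD68 made up most of it. The same sum over the hepatoma markers ran from 9.31 in Huh1 DSF to 10.23 in Huh7 5-FU.

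Windows at a listed transcript start of 3 members are printed because these genes moved in opposite directions after 5-FU: DNMT3B fell in both lines, and UHRF1 and SUZ12 rose in Huh7. Each is 250 bases before to 50 after a transcript start in RefSeq on GRCh38.p14, read 5′ to 3′ on the gene's strand. Capitals mark strings of the type that E2F factors, regulators of S phase genes, are known to bind, searched on both strands as TTTCCCGC, TTTCGCGC, TTTGCCGC and TTTGGCGC. The DNMT3B window is chr20:32779602-32779901 on the plus strand, the UHRF1 window, 1 of its 3, chr19:4909251-4909550 on the plus strand and the SUZ12 window chr17:31936757-31937056 on the plus strand.
DNMT3B: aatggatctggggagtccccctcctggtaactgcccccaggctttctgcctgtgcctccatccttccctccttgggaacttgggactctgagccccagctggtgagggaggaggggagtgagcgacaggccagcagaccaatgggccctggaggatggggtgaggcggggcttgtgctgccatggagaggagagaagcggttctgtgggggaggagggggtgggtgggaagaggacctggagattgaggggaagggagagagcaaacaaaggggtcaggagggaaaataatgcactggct
UHRF1: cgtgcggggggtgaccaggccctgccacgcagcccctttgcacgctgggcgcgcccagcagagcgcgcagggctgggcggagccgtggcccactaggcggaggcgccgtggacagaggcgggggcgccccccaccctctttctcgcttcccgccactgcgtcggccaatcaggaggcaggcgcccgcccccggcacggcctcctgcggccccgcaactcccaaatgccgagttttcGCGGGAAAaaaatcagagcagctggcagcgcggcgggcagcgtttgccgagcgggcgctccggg
SUZ12: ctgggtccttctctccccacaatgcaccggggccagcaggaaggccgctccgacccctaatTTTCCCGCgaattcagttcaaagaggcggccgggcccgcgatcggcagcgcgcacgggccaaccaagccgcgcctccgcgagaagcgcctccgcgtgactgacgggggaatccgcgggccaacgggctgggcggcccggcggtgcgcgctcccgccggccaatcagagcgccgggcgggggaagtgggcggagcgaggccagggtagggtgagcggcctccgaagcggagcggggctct

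At least 1 of the 4 strings occurred in 3.31% of 35116 promoters of this length, and in 5 of the 21 promoters listed for the 10 members. Those 5 belong to DNMT1, EZH2, SUZ12 and UHRF1, the last with 2 of its windows. Each string contains a CpG, 19 of the 21 windows hold more CpG sites than the median of 14 over all promoters, and some overlap. The 2 shares are therefore not of like windows. DNMT3A and BMI1, which also rose after 5-FU in Huh7, had no match in any listed window. DNMT1 and EZH2, with a match, were not called after 5-FU in either line. Whether these strings bear on the changes was not tested. The DNMT3B window, the only start listed for that gene, holds none and has 3 CpG sites. The SUZ12 window has 40 and that printed for UHRF1 has 36, with a median of 14 over all promoters. Any other start of DNMT3B was not searched, and which start these cells use was not measured. The lack of a match therefore holds for this window only, and it does not set the promoter of DNMT3B apart from those of UHRF1 and SUZ12. A match is a string of letters only, and no binding was measured.

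After DSF the members, each read by its brightest probe, moved little and not alike in the lines. In Huh7, 5 of the 8 rose by limma's test (adjusted p under 0.05): DNMT1, DNMT3A, UHRF1, EZH2 and BMI1, by 1.13-fold to 1.42-fold. By these probes none of the 8 fell there, and 0 did so at an unadjusted p under 0.05. A dim probe of TET2, described below, was lower by 0.64 after DSF in Huh7 and at least 4.75-fold higher in Huh1. In Huh1, EZH2 and BMI1 rose by 1.17-fold and 1.26-fold, while DNMT3A, DNMT3B and UHRF1 fell by 1.18-fold, 1.22-fold and 1.12-fold. Calls were frequent among all 29894 probes tested, 44.2% in Huh1 and 46.7% in Huh7, against 5 of 8 members in each. The median change over the members was -0.07 in Huh1 and 0.30 in Huh7, beside 0.002 and 0.083 over all probes. Scaled to the spike-ins instead, 2 members were called in Huh1 (EZH2 and BMI1) and 0 in Huh7, where 3 had an unadjusted p under 0.05.

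After 5-FU, with each member again read by its brightest probe, only DNMT3B fell in both lines, by 2.57-fold in Huh1 and 2.42-fold in Huh7. In Huh7, DNMT3A, UHRF1, SUZ12 and BMI1 rose by 1.48-fold, 1.95-fold, 1.22-fold and 1.32-fold. In Huh1 the only other call was DNMT3A, lower by 1.22-fold, a direction that turned to a rise of 0.55 under spike-in scaling. No member rose in Huh1 by its brightest probe in limma's adjusted test, though 3 were higher at an unadjusted p under 0.05 (UHRF1, TET2 and SUZ12). Dimmer probes were called higher there: the NM_175630 probe of DNMT3A by 0.90, and probes of TET2 by 0.65 and 0.37. By brightest probes, 2 of 8 members were thus called in Huh1 and 5 of 8 in Huh7, where 48.2% and 57.1% of all probes were. Scaled to the spike-ins, all 8 were called in each line, DNMT3B lower and the other 7 higher, with the median over all probes at 0.80 in Huh1 and 0.94 in Huh7. DSF and 5-FU share the control arrays of each line, so their changes are given side by side and not as independent measurements.

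DNMT3B, the de novo methyltransferase active in early development, had the largest changes among the brightest probes of the members under this scaling. Its level was 0.43, 0.28 and 0.36 on the Huh1 control arrays, 0.01, 0.13 and 0.09 after DSF, and -1.01, -0.96 and -1.04 after 5-FU. In Huh7 it was 1.41, 1.48 and 1.41 in control, 1.39, 1.37 and 1.39 after DSF, and -0.13, 0.24 and 0.36 after 5-FU. All 5-FU arrays lay below all control and DSF arrays of their line, with no overlap. The change after 5-FU was -1.36 ± 0.10 (SE, limma adjusted p = 1.16e-07) in Huh1 and -1.27 ± 0.10 (adjusted p = 5.37e-08) in Huh7. It stayed negative and called under every scaling tried, the smallest sizes being -0.53 (adjusted p = 0.00127) and -0.29 (adjusted p = 0.0443) against the spike-ins. After DSF it fell by 0.28 in Huh1 (adjusted p = 0.0262), a call lost without any of 4 single arrays (Huh1 control replicates 1 and 3, Huh1 DSF replicates 1 and 3; -0.25 to -0.29, adjusted p = 0.0532 to 0.0893), with the slide as a block (-0.29, adjusted p = 0.0584) and against the spike-ins (-0.15, adjusted p = 0.414), and was -0.05 in Huh7 (adjusted p = 0.707).

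DNMT3A, the other de novo enzyme, had 3 probes. The brightest, on NM_175629, read 0.12, 0.08 and 0.15 in Huh1 control, -0.11, -0.12 and -0.14 after DSF, and -0.02, -0.26 and -0.23 after 5-FU. On the Huh7 arrays it read 0.75, 0.75 and 0.76 in control, 1.34, 1.196 and 1.22 after DSF, and 1.35, 1.30 and 1.29 after 5-FU. Treated arrays of either drug therefore lay below control in Huh1 and above it in Huh7, without overlap. The changes after DSF were -0.24 ± 0.06 (adjusted p = 0.00778) and 0.50 ± 0.06 (adjusted p = 2.22e-05), and after 5-FU -0.28 ± 0.06 (adjusted p = 0.00219) and 0.56 ± 0.06 (adjusted p = 3.28e-06), Huh1 first. A second probe of the same transcript gave -0.26 (lost without control replicate 1 or 3 or DSF replicate 3, at -0.15 to -0.26, adjusted p = 0.0667 to 0.158) and 0.67 after DSF and, after 5-FU, -0.21 without a call (adjusted p = 0.0729) and 0.43.

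The third DNMT3A probe, on another transcript, NM_175630, did not follow these 2. It read -3.81, -3.85 and -3.55 in Huh1 control, -3.17, -3.07 and -3.38 after DSF, and -2.88, -2.82 and -2.82 after 5-FU. The Huh7 levels were -4.81, -4.95 and -4.75 in control, -3.98, -4.15 and -4.14 after DSF, and -3.43, -3.88 and -3.70 after 5-FU. It was well above background on every array, and treated arrays were higher than control in both lines. The rises were 0.53 and 0.75 after DSF (adjusted p = 0.00183 and 0.000128) and 0.90 and 1.16 after 5-FU (adjusted p = 2.39e-05 and 9.59e-07), Huh1 first. In Huh1 the probes of DNMT3A thus moved in opposite directions, and the mean over the 3 was 0.01 after DSF and 0.14 after 5-FU.

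**Figure D1:**
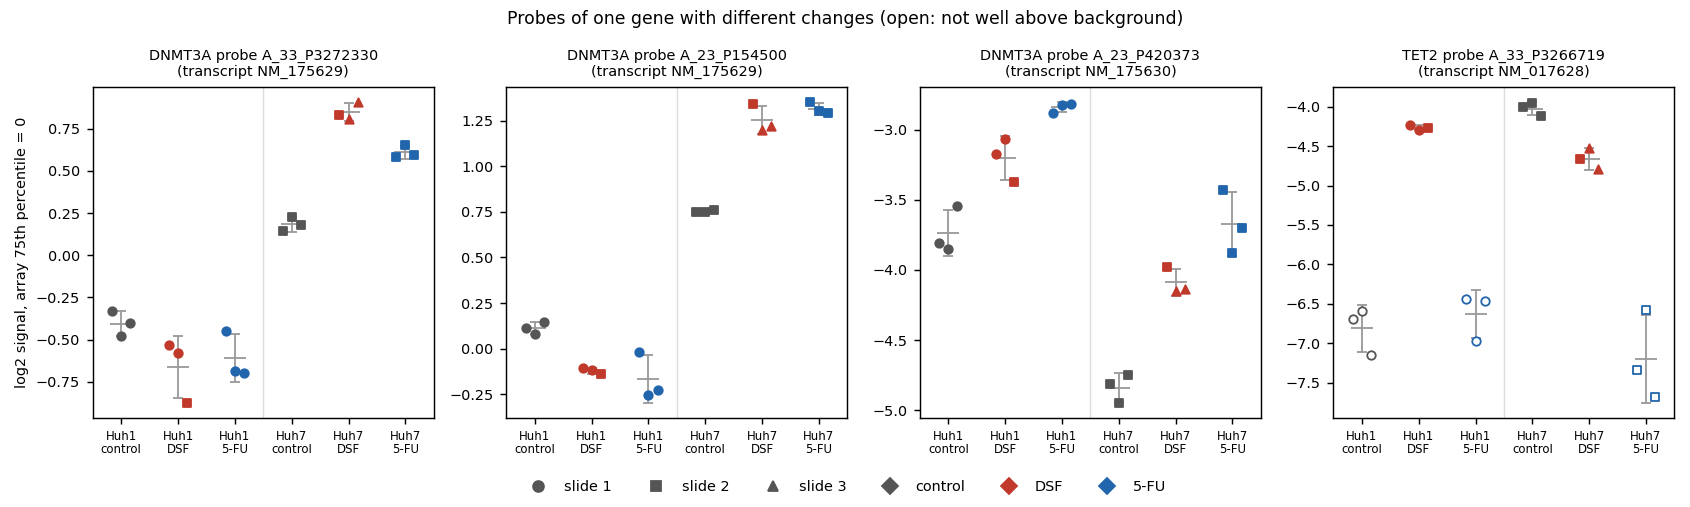
Level (log2 signal less the array's log2 75th percentile) of the 3 DNMT3A probes and the NM_017628 probe of TET2 on each of the 18 arrays, grouped by line and treatment, with open points for arrays not well above background and bars for the mean and SD of 3 arrays. The NM_175630 probe of DNMT3A rose with either drug in both lines, whereas the 2 NM_175629 probes stood lower in treated Huh1 and higher in treated Huh7.

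Of the maintenance pair, both DNMT1 and UHRF1 were called higher after DSF in Huh7, and UHRF1 alone was called there after 5-FU. UHRF1 read 1.77, 1.64 and 1.66 in Huh1 control, 1.49, 1.53 and 1.56 after DSF, and 1.74, 1.88 and 1.89 after 5-FU. In Huh7 it read 1.12, 1.06 and 1.13 in control, 1.52, 1.52 and 1.53 after DSF, and 2.12, 2.11 and 1.97 after 5-FU. The Huh7 groups ranked control, DSF, 5-FU with no overlap, and in Huh1 only the DSF arrays stood apart from control. The rises in Huh7 were 0.42 ± 0.06 after DSF (adjusted p = 7.07e-05) and 0.96 ± 0.06 after 5-FU (adjusted p = 1.04e-08). A second UHRF1 probe gave 0.25 (adjusted p = 0.112) and 1.15 (adjusted p = 1.98e-06) there. The fall after DSF in Huh1, -0.17 ± 0.06 (adjusted p = 0.0394), was lost without any 1 array of these groups other than Huh1 control replicate 2 (-0.12 to -0.18, adjusted p = 0.0569 to 0.144), and with the slide as a block (adjusted p = 0.0557). After 5-FU in Huh1 UHRF1 changed by 0.15 (adjusted p = 0.0573), called without control replicate 1 or 5-FU replicate 1 (0.19 and 0.20, adjusted p = 0.0275 and 0.0162).

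DNMT1 read 1.80, 1.64 and 1.74 in Huh1 control, 1.65, 1.68 and 1.56 after DSF, and 1.56, 1.504 and 1.47 after 5-FU. On the Huh7 arrays it read 1.19, 1.21 and 1.21 in control, 1.35, 1.83 and 1.75 after DSF, and 1.47, 1.31 and 1.30 after 5-FU. The high Huh7 DSF arrays, replicates 2 and 3, were those on slide 3. The DSF change in Huh7 was 0.44 ± 0.10 (adjusted p = 0.00254) over all arrays. It was 0.15 both with the slide as a block and within slide 2 alone. These are the same estimate, read from DSF replicate 1 alone. The other changes of DNMT1 were not called: -0.10 after DSF in Huh1, and -0.22 and 0.16 after 5-FU in Huh1 and Huh7 (adjusted p = 0.44, 0.09 and 0.202). With the slide as a block both 5-FU changes passed the threshold (adjusted p = 0.0114 and 0.0454), and under median scaling the DSF change in Huh1 did (-0.28, adjusted p = 0.0149), as did that of SUZ12 (-0.21, adjusted p = 0.0298).

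TET2, which oxidises methylcytosine, was not called with its brightest probe (NM_001127208) after either drug. That probe had group means of -2.42, -2.47 and -2.22 in Huh1 and -1.33, -1.24 and -1.19 in Huh7, for control, DSF and 5-FU in turn, with treated and control arrays overlapping in all comparisons. The changes lay between -0.04 and 0.21, with adjusted p of 0.0606 to 0.716. Of 2 dimmer probes of this transcript, one rose after both drugs in Huh1, by 0.55 and 0.65, and after 5-FU in Huh7, by 0.28 (adjusted p = 0.0463), and the other rose after 5-FU in Huh1, by 0.37 (adjusted p = 0.0182). The 0.28 was lost without any 1 of its 6 arrays other than 5-FU replicate 1 (0.19 to 0.31, adjusted p = 0.0562 to 0.195), the 0.37 without control replicate 2 or 3 or 5-FU replicate 2 (0.29 to 0.33, adjusted p = 0.0615 to 0.0843). The DSF rise was lost under quantile normalization (0.29, adjusted p = 0.0599). With a normexp background correction the 5-FU changes of the same probe were 0.003 and -0.01. With the brightest probe, the 5-FU change in Huh1 passed the threshold without control replicate 1 or 5-FU replicate 1 (0.29 and 0.25, adjusted p = 0.0127 and 0.0431).

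The fourth TET2 probe, on NM_017628, was above background in some groups and not in others. It read -6.70, -6.59 and -7.15 in Huh1 control, -4.23, -4.29 and -4.27 after DSF, and -6.44, -6.98 and -6.47 after 5-FU. The Huh7 levels were -4.00, -3.95 and -4.12 in control, -4.67, -4.53 and -4.80 after DSF, and -7.34, -6.59 and -7.68 after 5-FU. It was not well above background on any array of Huh1 control, Huh1 5-FU and Huh7 5-FU, and well above it on all 3 arrays of the other groups. Where one side was not above background the fold is a bound: the mean of the brighter group against, for each dim array, the lowest signal that any probe well above background had there or that of the probe itself, whichever was greater. By that bound it was at least 4.75-fold higher after DSF in Huh1 and at least 7.32-fold lower after 5-FU in Huh7. The probe passed the filter on dim probes only through the groups where it was well above background, so no p-value is given for these bounds. After DSF in Huh7 it fell by 0.64 (adjusted p = 0.0323), a call lost without any 1 of its 6 arrays other than DSF replicate 2 (-0.57 to -0.69, adjusted p = 0.0529 to 0.101). With the slide as a block this change rests on DSF replicate 1 alone.

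Of the PRC2 subunits, EZH2 rose slightly with DSF and SUZ12 rose with 5-FU in Huh7. EZH2, the H3K27 methyltransferase, read 2.17, 2.07 and 2.14 in Huh1 control, 2.36, 2.38 and 2.34 after DSF, and 2.04, 2.18 and 2.19 after 5-FU. In Huh7 it read 2.54, 2.56 and 2.55 in control, 2.70, 2.75 and 2.74 after DSF, and 2.43, 2.65 and 2.60 after 5-FU. DSF arrays stood above control in both lines without overlap, and 5-FU arrays overlapped control. The DSF changes were 0.23 ± 0.06 (adjusted p = 0.00723) in Huh1 and 0.18 ± 0.06 (adjusted p = 0.0286) in Huh7. The Huh7 call did not hold with the slide as a block (0.15, adjusted p = 0.247) and without any 1 array of these groups other than Huh7 DSF replicate 1 (0.17 to 0.18, adjusted p = 0.0634 to 0.0825), and the Huh1 call was lost with arrays scaled to their median (0.06, adjusted p = 0.506).

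SUZ12, the subunit that holds PRC2 together, read 2.98, 3.00 and 3.01 in Huh1 control, 2.99, 2.95 and 2.92 after DSF, and 3.14, 3.09 and 3.08 after 5-FU. On the Huh7 arrays it read 3.26, 3.24 and 3.27 in control, 3.35, 3.31 and 3.27 after DSF, and 3.59, 3.55 and 3.47 after 5-FU. 5-FU arrays were the highest in each line. The change after 5-FU was 0.28 ± 0.05 in Huh7 (adjusted p = 0.000164) and 0.11 in Huh1 (adjusted p = 0.0824), and after DSF it was -0.04 and 0.05 (adjusted p = 0.54 and 0.384).

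BMI1, the PRC1 subunit known for self-renewal of stem cells, read 0.96 on each Huh1 control array, 1.30, 1.29 and 1.28 after DSF, and 0.87, 0.94 and 0.92 after 5-FU. The Huh7 levels were -0.25, -0.09 and -0.26 in control, 0.27, 0.28 and 0.33 after DSF, and 0.38, 0.11 and 0.11 after 5-FU. Both treated groups lay above control in Huh7, and the DSF group alone in Huh1. The DSF changes were 0.33 ± 0.07 (adjusted p = 0.00163) in Huh1 and 0.49 ± 0.07 (adjusted p = 6.5e-05) in Huh7, and the 5-FU changes -0.05 (adjusted p = 0.588) and 0.40 ± 0.07 (adjusted p = 0.000227). A second probe of the same transcript gave 0.08 after DSF in Huh1 (adjusted p = 0.688) and rose in Huh7 by 0.80 after DSF and 0.77 after 5-FU. The Huh1 call after DSF was lost under median scaling (0.16, adjusted p = 0.133) and with the mean of both probes (0.21, adjusted p = 0.087).

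**Figure D2:**
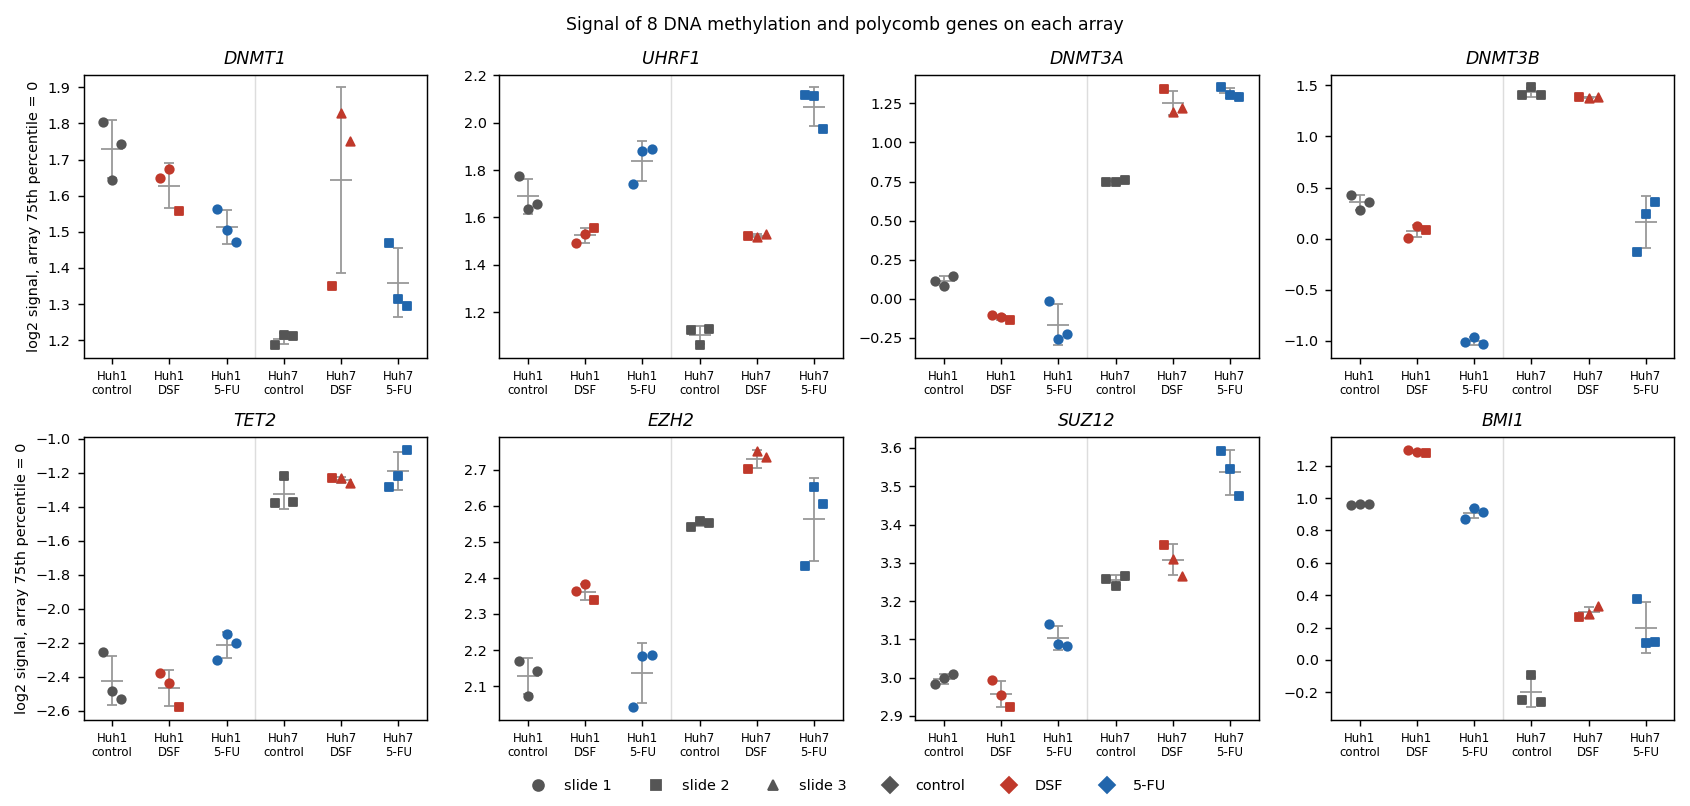
Level (log2 signal less the array's log2 75th percentile) of the brightest probe of each of the 8 members on the 18 arrays, by line and treatment, with the marker shape giving the slide and bars the mean and SD of 3 arrays. DNMT3B was lowest after 5-FU in both lines, UHRF1 highest after 5-FU in Huh7, and the 2 high DNMT1 arrays of Huh7 DSF lay on slide 3.

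Set against each other, the drugs differed in DNMT3B, which was higher after DSF than after 5-FU by 1.08 in Huh1 (adjusted p = 6.58e-07) and by 1.23 in Huh7 (adjusted p = 8.5e-08), a Huh7 call lost against the spike-ins (0.064, adjusted p = 0.637). UHRF1 was lower after DSF by 0.31 (adjusted p = 0.000662) and 0.54 (adjusted p = 2.98e-06), and SUZ12 by 0.15 (adjusted p = 0.021) and 0.23 (adjusted p = 0.000919), Huh1 first. By their brightest probes 6 of 8 members were called in Huh1 and 5 of 8 in Huh7, beside 49.2% and 60.5% of all probes. EZH2 was higher after DSF by 0.22 and 0.17 and BMI1 by 0.38 in Huh1, but against the spike-ins, where the median of all probes moved to -0.61 and -1.04, these turned to -0.47, -0.99 and -0.32. DNMT1 was higher after DSF by 0.28 in Huh7 with overlapping arrays (adjusted p = 0.0242; -0.01 with the slide as a block), and TET2 was lower by 0.25 in Huh1 (adjusted p = 0.026). Single arrays decided 4 of these calls. The DNMT1 call was lost without DSF or 5-FU replicate 2 or 3 (0.19 to 0.26, adjusted p = 0.0696 to 0.128), the TET2 call without DSF replicate 3 or 5-FU replicate 2 or 3 (-0.19 to -0.24, adjusted p = 0.0652 to 0.114), the SUZ12 call in Huh1 without DSF replicate 2 or 3 or 5-FU replicate 1 (-0.13 to -0.15, adjusted p = 0.0555 to 0.0765) and the EZH2 call in Huh7 without DSF replicate 2 or 3 or 5-FU replicate 1 (0.10 to 0.16, adjusted p = 0.0731 to 0.137).

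Whether a drug's effect differed between the lines was tested as the change in Huh7 less that in Huh1. After DSF the difference was called for 3 of 8 members by their brightest probes, all higher in Huh7: DNMT3A by 0.74 (adjusted p = 2.61e-05), UHRF1 by 0.58 (adjusted p = 0.000117) and DNMT1 by 0.54 (adjusted p = 0.00759), where 40.3% of all probes were called. The second UHRF1 probe gave 0.38 (adjusted p = 0.095) and the NM_175630 probe of DNMT3A 0.22 (adjusted p = 0.312). After 5-FU it was called for DNMT3A, 0.84 (adjusted p = 8.42e-06), UHRF1, 0.81 (adjusted p = 7.54e-06), and BMI1, 0.45 (adjusted p = 0.00285), 3 of 8 beside 36.6% of all probes, with 0.27 (adjusted p = 0.23) at the NM_175630 probe of DNMT3A. DNMT3B, which fell in both lines after 5-FU, had a difference of 0.09 with a 95% interval of -0.20 to 0.38. Scaled to the spike-ins none of the 8 DSF differences was called by limma, and 1 had an unadjusted p under 0.05. Of 23 proliferation genes, a list described below, 15 had a higher and 1 a lower change in Huh7 after DSF. After 5-FU 20 were higher and 0 lower, also 0 at an unadjusted p under 0.05. Over all probes 21.1% were higher and 19.2% lower after DSF, and 18.8% and 17.8% after 5-FU.

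With their brightest probes, all 8 members differed between the control groups, as did 70.7% of all probes. In Huh7 control DNMT3A, DNMT3B, TET2, EZH2 and SUZ12 stood higher than in Huh1 control, by 0.64, 1.07, 1.097, 0.42 and 0.26, and DNMT1, UHRF1 and BMI1 lower, with differences of -0.53, -0.59 and -1.16 (adjusted p from 1.46e-09 to 0.000264). The control arrays of each line share a slide. With the slide as a block, where 1 array (Huh1 DSF replicate 3) puts both lines on a slide, all 8 kept their direction and call, and 16781 of all probes were called in place of 21131. Under median scaling SUZ12 was lost (0.10, adjusted p = 0.244), and with gene means over probes DNMT3A (0.041, adjusted p = 0.619). The NM_175630 probe of DNMT3A differed the other way from its brightest probe, by -1.101, and the NM_017628 probe of TET2 was at least 5.62-fold higher in Huh7 control.

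Across the 18 arrays, the genes most like each member in level were BMPR1B, NCAPG and PCDH7 for DNMT3A (Pearson r of 0.991 to 0.989), RABL2A, PDIA4 and XXYLT1 for DNMT3B (0.991 to 0.985), LCMT2, PHF19 and CLSPN for UHRF1 (0.972 to 0.960), and GPSM1, B3GALT5-AS1 and PITX3 for DNMT1 (0.934 to 0.930). For TET2 they were PAG1, ATP10D and VAX2, for EZH2 AK8, ZNF101 and SEC11C, for SUZ12 ZCCHC3, MCM8 and UTP14C, and for BMI1 KPNA4, TPD52L2 and NOL9, with r of 0.969 to 0.991. These are the highest of 15851 genes, and the arrays share the line and drug groups. Within the lines, UHRF1 and SUZ12 moved together (r = 0.899 over 18 arrays centered on their line), and DNMT3B opposite to SUZ12 (r = -0.892) and UHRF1 (r = -0.762). These r are the largest in size over all pairs of tested members. Centering on the line leaves the drug groups in, so they in part restate the group changes given above.

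Among 15 other tested genes of DNA methylation, 5 rose and 7 fell after DSF in Huh1, 5 and 2 in Huh7, and after 5-FU 6 rose and 3 fell in Huh1 and 8 and 3 in Huh7. TRDMT1, a homolog of the DNA methyltransferases that methylates transfer RNA, fell after 5-FU by 1.36 in Huh1 and 1.28 in Huh7, the second lost against the spike-ins (-0.30, adjusted p = 0.0868). TET1, the paralog of TET2, fell after DSF by 0.80 and 1.12. HELLS, a chromatin remodeler needed for DNA methylation, rose after 5-FU by 0.49 and 0.93, and MBD4, a glycosylase that binds methylated CpG, by 0.75 and 0.85. Over all probes, 23.9% rose and 20.3% fell after DSF in Huh1, 27.3% and 19.4% in Huh7, 22.2% and 26% after 5-FU in Huh1, and 27.3% and 29.7% in Huh7.

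The other PRC2 genes, 10 tested, had 2 rises and 5 falls after DSF in Huh1, 3 and 0 in Huh7 (also 0 falls at an unadjusted p under 0.05), and 3 and 4 after 5-FU in each line. EZH1, the paralog of EZH2, rose after DSF by 0.72 and 0.33. With the slide as a block the second was 0.14, read from Huh7 DSF replicate 1 alone. The Huh7 call was lost without Huh7 control replicate 2 or 3 or DSF replicate 2 or 3 (0.27 to 0.33, adjusted p = 0.0678 to 0.112). PHF1, an accessory subunit, rose after 5-FU by 0.57 and 0.45, while the accessory subunits AEBP2 and JARID2 changed by -0.59 and -0.77 (AEBP2) and by -0.32 and -0.23 (JARID2), directions that turned to 0.24 and 0.22 and to 0.51 and 0.76 against the spike-ins. The JARID2 call in Huh7 (adjusted p = 0.0496) was lost with the replicate block (adjusted p = 0.064) and without any of the 3 control arrays or 5-FU replicate 1 (-0.10 to -0.24, adjusted p = 0.0868 to 0.249), and that in Huh1 without control replicate 1 (-0.26, adjusted p = 0.0501).

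Of 25 other PRC1 genes, 9 rose and 8 fell after DSF in Huh1, 9 and 4 in Huh7, 8 and 7 after 5-FU in Huh1 and 10 and 7 in Huh7. CBX7, a chromodomain subunit that reads H3K27 methylation, fell after DSF by 0.39 and 1.02, the first lost against the spike-ins (-0.26, adjusted p = 0.18) and with the mean over its probes (-0.10, adjusted p = 0.262), and CBX8, of the same family, rose after 5-FU by 0.45 and 0.76. BCORL1, a corepressor of a variant PRC1, fell after DSF by 0.80 and 0.41, and YAF2 rose after 5-FU by 0.47 and 0.67, the second lost with the mean over its probes (0.013, adjusted p = 0.932). Of 6 tested genes that remove the polycomb marks, 3 rose after DSF in Huh1 and 4 in Huh7, and 0 fell, also at an unadjusted p under 0.05. KDM6B, an H3K27 demethylase, rose by 2.00 and 0.36, the second lost without any 1 of its 6 arrays (0.31 to 0.40, adjusted p = 0.0506 to 0.12), and USP16, a deubiquitinase of H2A, rose by 0.45 and 0.74. After 5-FU 1 of the 6 rose and 2 fell in each line, with KDM6A, the other demethylase, at -0.23 and -0.57, turned to 0.60 and 0.41 against the spike-ins. The KDM6A call in Huh1 was lost without control replicate 1 or 2 or any of the 5-FU arrays (-0.19 to -0.22, adjusted p = 0.0511 to 0.0819).

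Genes of proliferation, a property with which DNMT1, UHRF1 and EZH2 are known to vary, were followed on a list of 23. After DSF 1 rose and 13 fell in Huh1, and 8 rose and 3 fell in Huh7, with medians of -0.40 and 0.03. After 5-FU 4 rose and 11 fell in Huh1 and 12 rose and 5 fell in Huh7, with medians of -0.27 and 0.34. CCNE2, the cyclin of S phase entry, rose after 5-FU by 0.99 and 2.23, while the mitotic genes PLK1, CCNB1 and AURKA changed by -1.90, -1.35 and -1.10 in Huh1 and -0.70, -0.33 and -0.57 in Huh7, the Huh7 values turning to 0.28, 0.65 and 0.41 against the spike-ins, where AURKA in Huh1 was also lost (-0.27, adjusted p = 0.119). The part of proliferation in the members' changes was not tested.

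Among genes held silent by these systems, 8 of 16 germline genes known to be DNA-methylated in somatic cells were tested, of which 3 rose and 0 fell after DSF in Huh1 (0 also at an unadjusted p under 0.05), 4 and 1 in Huh7, and 2 and 1 and 4 and 2 after 5-FU. SSX2, a member of a family of near-identical genes whose signals may not be separable, changed by -1.14 and -0.44 after 5-FU, the first lost against the spike-ins (-0.31, adjusted p = 0.121), the second at 0.55 there and lost without any of 5 arrays (Huh7 control replicates 1 to 3, 5-FU replicates 2 and 3; -0.38 to -0.47, adjusted p = 0.0507 to 0.106). Of 15 tested polycomb target genes, 6 rose and 4 fell after DSF in Huh1, 3 and 4 in Huh7, and 5 and 6 and 4 and 5 after 5-FU. CDKN2B, a cell cycle inhibitor, rose after 5-FU by 1.76 and 2.94, and LHX2, a developmental transcription factor, by 2.20 and 1.16, while CDH1, the adhesion protein of epithelia, fell after DSF by 0.69 and 1.25, the first lost against the spike-ins (-0.56, adjusted p = 0.127), with the slide as a block (-0.67, adjusted p = 0.0684) and without Huh1 control replicate 2 or 3 or DSF replicate 2 or 3 (-0.66 to -0.69, adjusted p = 0.0534 to 0.0643). No methylation or histone mark was measured.

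The markers of the sorted cells moved too. After DSF 0 of 8 hepatoma markers rose (also 0 at an unadjusted p under 0.05) and 7 fell in Huh1, and 2 rose and 4 fell in Huh7, with EPCAM itself at -0.66 and -0.50, APOA1 at -2.03 and -0.82 and GPC3 at -1.37 and -0.91. With the slide as a block the Huh7 changes, read from DSF replicate 1 alone, were -0.47 for EPCAM and -0.74 for APOA1. The Huh7 call of EPCAM was lost without any of the 3 control arrays or DSF replicate 2 or 3 (-0.48 to -0.51, adjusted p = 0.0596 to 0.076). Against the spike-ins the EPCAM fall in Huh1 was lost (-0.53, adjusted p = 0.0831). After 5-FU 2 rose and 2 fell in Huh1 and 4 and 2 in Huh7, with ALB at -0.34 and -0.35, turned to 0.49 and 0.64 against the spike-ins and to 0.13 and 0.21 under quantile normalization. CD68, which macrophages express strongly, rose after 5-FU by 0.68 and 1.59, the first lost without Huh1 control replicate 2 or 3 (0.56 and 0.51, adjusted p = 0.0662 and 0.0762). Of the 6 tested markers of other cells, 1 rose and 1 fell after DSF in Huh1, 0 and 1 in Huh7 (1 and 1 at an unadjusted p under 0.05), and 1 and 1 and 2 and 1 after 5-FU. Their part in the members' changes was not tested.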

How the data were processed

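RNA of EpCAM+ cells from 6 groups was measured on 18 1-color Agilent 8x60K arrays, with replicates taken from the labels; per the labels and methods they come from independent experiments, and p-values measure the spread between these samples. The deposited files hold the spot intensity after Feature Extraction 10.7.1.1 (per the labels) subtracted background, not scaled between arrays, and a table of intensity that the authors divided by each array's 75th percentile in GeneSpring, which gave values within 0.05 log2 of those used here. Here log2 processed signals were averaged over unflagged spots (316 to 447 flagged per array, 0 saturated) and the array's log2 75th percentile (10.1 to 10.84) subtracted. Of 42405 probes, 78 lacked an unflagged spot on an array, and the test covered 29894 that every array of some group showed well above background. Probes were named through RefSeq accessions (25771 of 27134 matched; 15852 genes tested), and a gene was read from its tested probe with the highest mean.

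One limma 3.58.1 fit (R 4.3.3; 12 residual degrees of freedom) held all groups, with Benjamini-Hochberg adjustment over all probes tested in each of 9 comparisons and calls at 0.05. The script was tested on simulated data. With 3 arrays against 3 an exact permutation test cannot go below p = 0.1, so none is given, and the number of arrays limits the precision. Members and lists were chosen with earlier results of these data known. Every member was named; from each list, up to 4 genes called the same way in both lines after a drug without overlap, by mean size, and for likeness the 3 genes with the highest r. The values of 1 gene that this rule names are not reported here. Promoters were searched and figures drawn with Python 3.11.15, pandas 2.3.3, numpy 2.4.6 and matplotlib 3.10.9. Probe accessions that the naming table lacked were left unnamed. The 12 alternatives, beside leaving out each array, covered scaling, background, filters, probe choice, blocks and the study's own thresholds.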

Additional observations from a re-analysis of the deposited data

Results flagged for a closer look

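A drug's change in Huh7 differed from that in Huh1, by limma's test of the difference itself, for 6 member and drug pairs read by their brightest probes, all with the higher change in Huh7. That is 3 of 8 members for each drug, 37.5%, beside 40.3% of all probes after DSF and 36.6% after 5-FU. The direction was shared with the 23 proliferation genes, of which 15 were higher and 1 lower after DSF. After 5-FU 20 of them were higher and 0 lower, also 0 at an unadjusted p under 0.05. After DSF the difference was 0.74 for DNMT3A (adjusted p = 2.61e-05), 0.58 for UHRF1 (adjusted p = 0.000117) and 0.54 for DNMT1 (adjusted p = 0.00759). After 5-FU it was 0.84 for DNMT3A (adjusted p = 8.42e-06), 0.81 for UHRF1 (adjusted p = 7.54e-06) and 0.45 for BMI1 (adjusted p = 0.00285). With the slide as a block and within slides alike, the DNMT1 difference after DSF was 0.22. Both read the Huh7 DSF group from replicate 1 alone. Against the spike-ins the DSF differences were not called, at 0.43 for DNMT3A (adjusted p = 0.13), 0.27 for UHRF1 (adjusted p = 0.325) and 0.23 for DNMT1 (adjusted p = 0.344). The dim DNMT3A probe annotated to NM_175630 rose in both lines after both drugs. Groups of 3 arrays were too small to test for outlying samples.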

How the results depend on the processing

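Of the changes described, the fall of DNMT3B after 5-FU and the rises of DNMT3A, UHRF1, SUZ12 and BMI1 after 5-FU in Huh7 and of the NM_175630 probe of DNMT3A after both drugs kept direction and call under all 12 alternatives and without any single array, except that gene means over probes give the last no value. The rises of DNMT3A, UHRF1 and BMI1 after DSF in Huh7 were lost under spike-in scaling alone. Among the alternatives, the slide block and the shared-slide fit read every Huh7 DSF change from replicate 1 alone.

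Scaling to spike-ins called 2 members after DSF in Huh1, 0 in Huh7 (3 at an unadjusted p under 0.05 in limma), 8 after 5-FU in each line and 0 in the DSF difference between lines. Of called probes, 74.7% were then higher after DSF in Huh1 and 34.3% in Huh7, 98.4% and 95.7% after 5-FU, and 22736 probes were called after 5-FU in Huh1 (14403 otherwise) and 6785 in the 5-FU difference (10935). Values turned to 0.032 (DNMT1), 0.091 (TET2), 0.094 (SUZ12) and 0.001 (UHRF1 probe 2) after DSF in Huh1, to -0.096 (TET2) and -0.12 (SUZ12) in Huh7, to 0.61 (DNMT1), 0.55 (DNMT3A), 0.78 (BMI1), 0.62 (DNMT3A probe 2), 0.57 (BMI1 probe 2), 0.24 (AEBP2), 0.51 (JARID2), 0.60 (KDM6A) and 0.49 (ALB) after 5-FU in Huh1, and to 0.22 (AEBP2), 0.76 (JARID2), 0.41 (KDM6A), 0.28 (PLK1), 0.65 (CCNB1), 0.41 (AURKA), 0.55 (SSX2) and 0.64 (ALB) in Huh7. DSF against 5-FU turned to -0.47 (EZH2) and -0.32 (BMI1) in Huh1 and -0.88 (DNMT1) and -0.99 (EZH2) in Huh7. The cause was not tested.

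Quantile normalization called 4 members after 5-FU in Huh1 and gave -0.060 (SUZ12, DSF, Huh7), -0.020 (EZH2, 5-FU, Huh7) and 0.13 and 0.21 (ALB, 5-FU, Huh1 and Huh7). Median scaling called 5 in the DSF difference, 33% of called probes higher after DSF in Huh1, and gave -0.089 (BMI1 probe 2, DSF, Huh1) and -0.014 (EZH2, 5-FU, Huh1). Normexp gave -0.012 for a dim TET2 probe after 5-FU in Huh7. Testing probes above background on all arrays called 4 members after 5-FU in Huh1 and 5 in the 5-FU difference. Gene means over probes called 3 after DSF in Huh1 and 5 in the DSF difference, and gave 0.013 and 0.14 (DNMT3A in Huh1, DSF and 5-FU) and, for TET2, 0.82 (DSF, Huh1), -0.14 (DSF, Huh7), -0.64 (5-FU, Huh7) and 0.46 (DSF against 5-FU, Huh1). The study's thresholds called 3 after DSF in Huh1 and 3 for DSF against 5-FU in Huh7.

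The slide as a block, and, chosen after seeing the data, arrays of a shared slide alone, each called 3 members after DSF in Huh1. They gave 0.014 (TET2, DSF, Huh1) and -0.008 (DNMT1, DSF against 5-FU, Huh7). Both fits read the Huh7 DSF group from replicate 1 alone, so no counts of calls are given for comparisons with that group. The replicate block changed 1 member's call, UHRF1 after DSF in Huh1 (-0.17, adjusted p = 0.0634), leaving 4 called there; same-numbered arrays correlated at -0.093 to 0.103 over 45 pairs, so numbers did not pair the arrays.

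Leaving out single arrays gave 3 to 5 members called after DSF in Huh1 (3 without control replicate 1 or 3 or DSF replicate 1 or 3), 2 to 4 after 5-FU in Huh1 (4 without control or 5-FU replicate 1) and 3 to 5 for DSF against 5-FU in Huh7 (3 without DSF replicate 2 or 3). It moved the sign of values near 0: BMI1 probe 2 after DSF in Huh1 (-0.14 to 0.28), EZH2 after 5-FU (-0.020 to 0.056 in Huh1, -0.031 to 0.078 in Huh7) and TET2 after DSF in Huh1 (-0.097 to 0.040).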
